A study of Mus musculus with 16 samples.

Results

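The comparison set healthy nucleus pulposus (NP), the gel-like core of the intervertebral disc, against healthy annulus fibrosus (AF), the layered fibrous ring around it, in the mouse. Its members were chosen by title, as the 4 arrays of control NP and the 4 arrays of control AF, 8 of the 16 arrays of the series. Both tissues came from the same 4 female mice of 3 to 4 months, so that NP array 1 and AF array 1 share an animal, and likewise for 2 to 4. These controls (CTR) carry Sox9fl/fl, that is, Sox9 alleles flanked by loxP sites, and no Cre is named for them. The other 8 arrays came from 4 conditional knockouts (cKO, AcanCreERT2Sox9fl/fl), whose tamoxifen-inducible Cre is driven by the aggrecan gene and which were given tamoxifen on 2 days in a row. Tissue was collected at 5 days from the first of these injections. Whether control mice also received tamoxifen is not stated in the labels. NP and AF were cut out under the microscope, and lumbar and tail discs of an animal were pooled, so that 1 array holds several discs and levels of the spine.

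The core of the disc descends from the notochord, the embryonic midline rod, and its cells keep epithelial features such as simple keratins and desmosomes. They live without blood vessels, far from oxygen and glucose, and are known for a strong dependence on glycolysis and on hypoxia-inducible factors. The ring descends from the sclerotome, the part of the somite that also builds vertebrae, and its cells make type I collagen in the outer layers and more cartilage-like matrix in the inner layers. The ring borders bone, cartilage endplate, muscle and vessels.

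Expression was measured on 1-colour Affymetrix arrays and given as log2 signals, on which a difference of 1 is a doubling. A difference is NP minus AF throughout, so that a positive one means a higher signal in NP. Of 22206 probe sets tested, 3167 (14.3%) differed between the tissues at a Benjamini-Hochberg adjusted p under 0.05 in limma with the animal as a block, here termed called. Of these, 1431 (6.44%) were higher in NP and 1736 (7.82%) were higher in AF. Counted by gene, 6.64% were called higher in NP and 8.19% higher in AF. Each count of a gene group below is to be set beside those shares. The median difference over all probe sets was 0.04. When each array was centred on its median, differences shifted by 0.128 toward NP, and the share of calls that were higher in NP became 61.3%, against 45.2% as deposited. Descriptions below are mainly of genes with a mean of at least 8 in NP or AF, which 8027 probe sets reached, and counts of a gene group cover all its measured members. This is a level for description and no detection call, since 22.9% of 5222 negative control probe sets also reached it. Their medians per array lay between 6.35 and 6.59. Where a tissue's mean is at or under 6.59, that level cannot be told from background, so the size of the difference is uncertain, and where both means are, no size is read from it. Errors after a mean are SDs (n = 4), and SE is that of a difference in the fit.

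The differences were larger, and reached background more often, on the AF side. Among probe sets with a mean of at least 8, 911 (11.3%) were called higher in NP and 919 (11.4%) higher in AF. Of the 911 that were higher in NP, 8 (0.878%) had an AF mean at or under 6.59. Of the 919 that were higher in AF, 204 (22.2%) had an NP mean at or under that level. The size of the fitted difference had a median of 1.22 and a 90th percentile of 1.97 for those higher in NP, with 3.31 as the largest. For those higher in AF the median was 1.67, the 90th percentile 4.71 and the largest 12.40. Over all called probe sets, 3 were higher in NP by 3 or more, and 243 were higher in AF by as much. For 365 probe sets called higher in NP with an NP mean of at least 12, the AF means were 9.28 or more. For 189 called higher in AF with an AF mean of at least 12, the lowest NP mean was 4.22, and 20 lay at or under background. Thus bright genes of the core stayed above 6.59 in the ring, whereas some bright genes of the ring were at or under that level in the core. That level is a median of negative controls, and their 95th percentile reached 10.78. The lowest of these AF means, such as 9.28, lie within the range of the controls. Whether the ring's own cells express genes of the core or NP tissue was taken along in the dissection cannot be told apart in these data. Nor, in whole tissue, can fewer cells of a type be told apart from less RNA per cell.

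**Figure D1:**
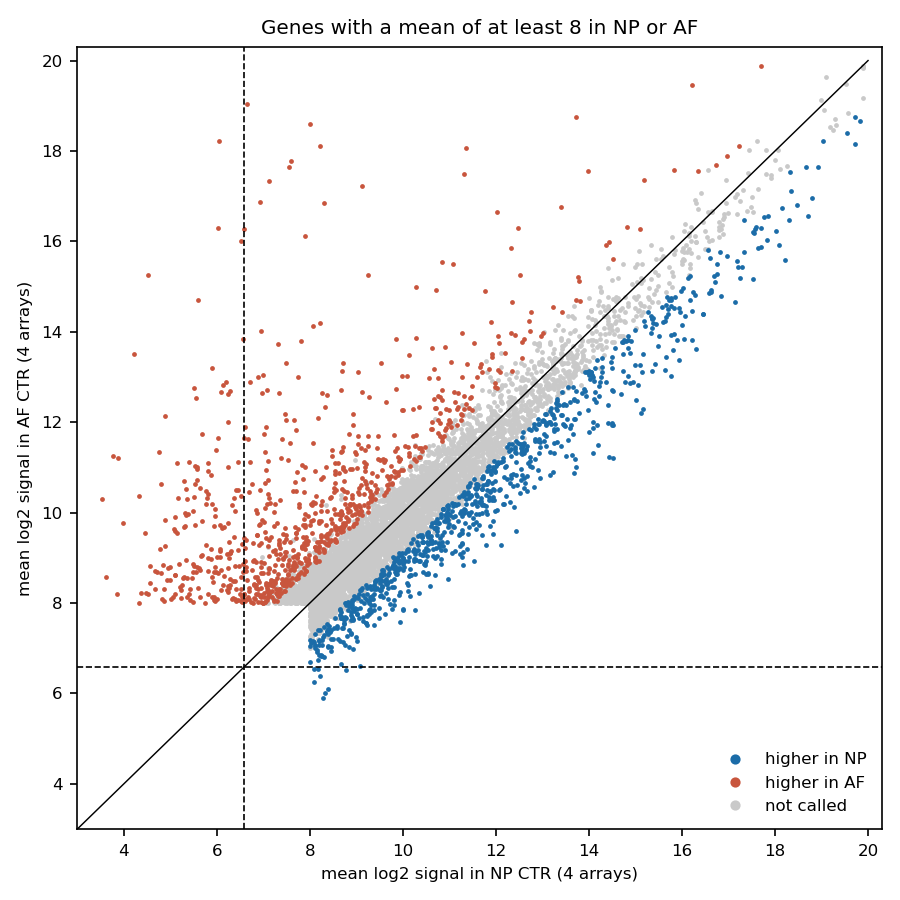
Mean log2 signal in AF CTR (vertical) against NP CTR (horizontal) for each gene with a mean of at least 8 in either tissue; blue points were called higher in NP, red points higher in AF, grey points were not called, and dashed lines mark 6.59, the highest median of negative controls. Red points reach NP means under the dashed line, down to 4.22 among genes with an AF mean of at least 12, whereas blue points stay near the diagonal, with differences of up to 3.31.

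The labels of the tissues were first set against their defining markers. Of the NP markers, Krt8, Krt18, Krt19 and Cd24a were called higher in NP, Shh was not (7.33 ± 0.18 in NP and 7.58 ± 0.38 in AF, adjusted p = 0.531) and Car3 was near the top of the scale in both (19.90 ± 0.03 in NP and 19.89 ± 0.04 in AF, adjusted p = 0.972). A further NP marker was not analysed here. Of the AF markers, Col1a1, Col1a2, Mkx, Tnmd, Thbs4 and Scx were called higher in AF, the last with a mean of only 7.14 there. Fmod was at 17.43 ± 0.22 in NP and 18.02 ± 0.16 in AF and was not called (adjusted p = 0.11). Acan, the core protein of the disc's main proteoglycan, was at 18.99 ± 0.08 in NP and 19.13 ± 0.22 in AF (adjusted p = 0.726), and Sox9 at 16.27 ± 0.36 in NP and 16.92 ± 0.51 in AF (adjusted p = 0.155), and neither was called.

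Keratins of simple epithelia, the intermediate filaments long used to recognise notochordal cells, were higher in NP. Of 6 measured members, 5 were called higher in NP and 0 higher in AF, with a median difference of 2.0, where 6.64% of all genes were called higher in NP. Krt19 had signals of 18.21, 18.02, 18.22 and 17.92 in NP arrays 1 to 4, against 15.35, 15.66, 16.24 and 16.42 in AF arrays 1 to 4. The groups did not overlap, as for 22.6% of all probe sets, and the difference was 2.18 (SE 0.27, adjusted p = 0.00047, 4.52-fold). Krt8, the partner that pairs with it and with Krt18 in filaments, had 16.33, 16.44, 16.63 and 16.42 in NP, against 13.63, 14.53, 14.71 and 14.72 in AF (difference 2.06, SE 0.25, adjusted p = 0.00042). Krt18 differed by 2.18 (SE 0.37, adjusted p = 0.0031) and Krt7 by 1.95 (SE 0.35, adjusted p = 0.00428). AF array 1 was the lowest AF array for each of these 4 keratins. The fifth called member, Krt20, had a mean of 7.77 in NP and 6.77 in AF, and Krt23 was under background in both tissues.

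Desmosomes, the junctions to which keratin filaments are anchored, went with the keratins. Of 13 members, 7 were called higher in NP, 1 higher in AF and 5 were not called. The 7 cover the layers of the junction: the cadherins Dsc3, Dsc2 and Dsg2 that span the gap between cells, the plaque proteins Pkp1 and Pkp2, the linker Dsp (desmoplakin) that binds keratin, and Perp, a membrane protein needed for desmosome assembly. Their differences ran from 2.14 for Dsc2 and Pkp2 to 2.88 for Perp. Perp had 15.01, 15.16, 15.07 and 15.42 in NP, against 11.56, 12.01, 13.17 and 12.41 in AF (SE 0.28, adjusted p = 0.00012). Dsp had 14.45, 14.28, 14.50 and 14.75 in NP, against 10.98, 12.04, 12.32 and 12.38 in AF (difference 2.56, SE 0.27, adjusted p = 0.00019). Dsc3 had 14.15, 13.86, 14.79 and 14.01 in NP, against 10.88, 11.19, 12.03 and 11.88 in AF (difference 2.71, SE 0.25, adjusted p = 7.6e-05). In each case every NP array lay above every AF array. This holds by choice, since these genes are among the 20 with the largest rise in NP, which had to have no overlap. Jup (plakoglobin), which also serves adherens junctions, went the other way, with 7.63 ± 0.39 in NP and 9.02 ± 0.73 in AF (difference -1.38, SE 0.24, adjusted p = 0.00338). The desmosome counts were 7 and 1 in every fit that left out 1 animal.

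**Figure D2:**
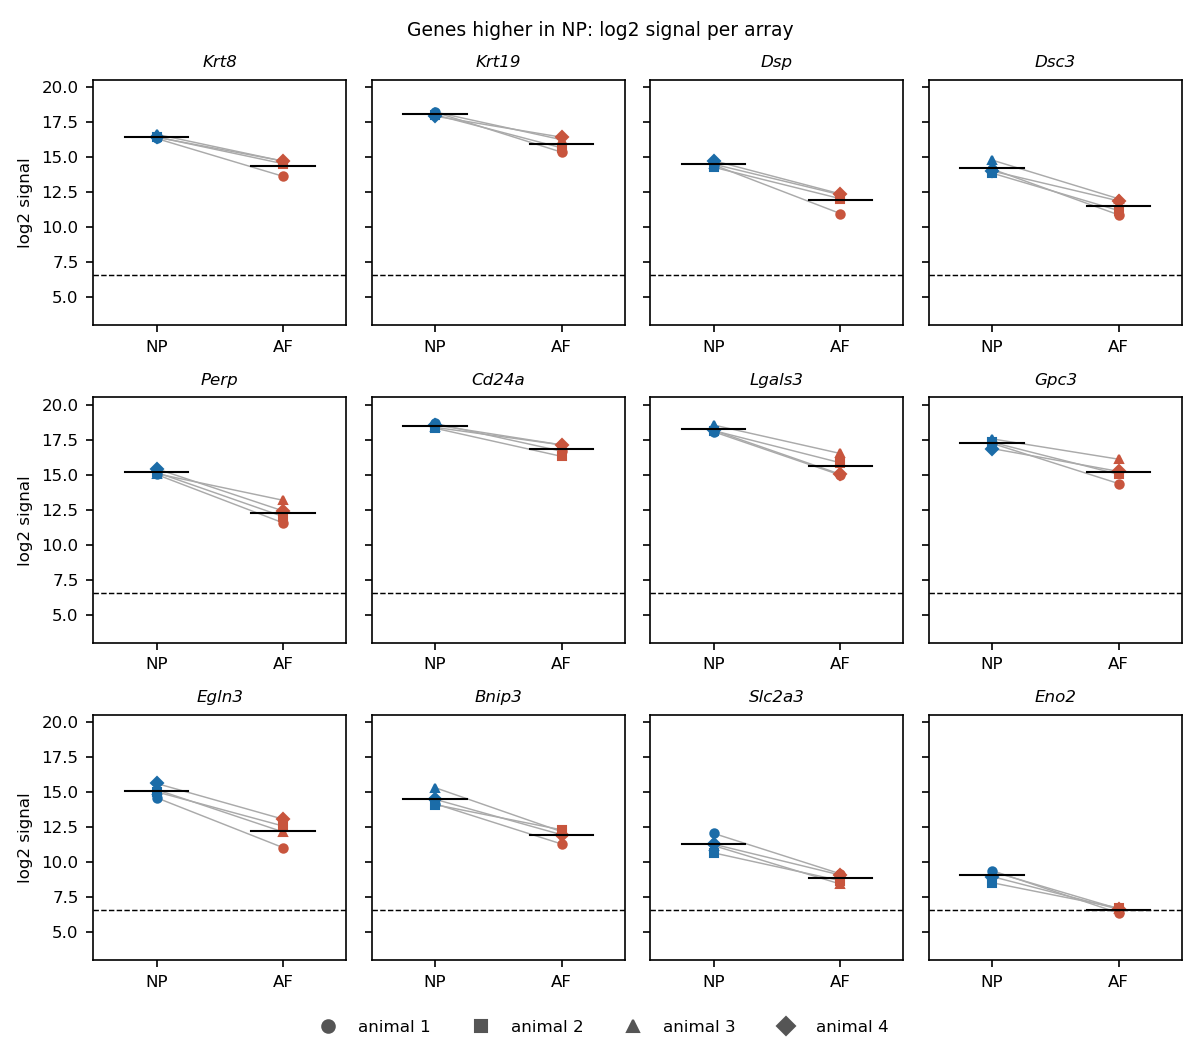
Log2 signal (vertical) of 12 genes called higher in NP, with NP arrays in blue on the left and AF arrays in red on the right of each panel; grey lines join the tissues of 1 animal, black bars are means of 4 arrays and the dashed line is the background of 6.59. The tissues do not overlap in any panel, as for 22.6% of all probe sets. For Dsp, Dsc3, Perp, Lgals3, Egln3 and Bnip3 this holds by choice. They are among the 20 genes with the largest rise in NP, which had to have no overlap. The AF mean of Eno2 lies close to the dashed line.

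Most other epithelial junction genes were not called. Of 23 measured tight junction genes, 1 was called higher in NP (Cldn19, with a mean of 7.5 in NP and 6.0 in AF) and 2 higher in AF (Cldn5 and F11r), and only Tjp1 and Cgnl1 reached a mean of 8. These tight junction counts are near the shares over all genes, 6.64% in NP and 8.19% in AF. Of 17 cadherins and related adhesion genes, 5 were called higher in NP and 3 higher in AF. The 5 became 3 without animal 1, 3 or 4, and the 3 became 5 on all 16 arrays with the animal as a random block. The epithelial cadherin Cdh1 was under background in both tissues (5.47 in NP and 6.39 in AF) and was called higher in AF. Cdh2 (N-cadherin) had 15.95 ± 0.12 in NP and 14.44 ± 0.57 in AF (difference 1.51, SE 0.25, adjusted p = 0.00301), and Cdh6 had 14.73 ± 0.34 in NP and 13.13 ± 0.76 in AF (1.60, SE 0.25, adjusted p = 0.00229). Cdh11, a cadherin known from bone and fibroblasts, was higher in AF (8.05 ± 0.30 in NP and 10.16 ± 1.06 in AF, -2.11, SE 0.41, adjusted p = 0.0071). The connexin Gja1 was higher in NP by 1.39 (SE 0.26, adjusted p = 0.0052), while Gjc3, a connexin known from glia, was higher in AF (-3.53, SE 0.41, adjusted p = 0.00036). Klf5, a transcription factor of epithelia, had 11.27 ± 0.17 in NP and 9.32 ± 0.22 in AF (1.95, SE 0.23, adjusted p = 0.00041).

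Surface and cytoskeletal markers of NP cells from the literature were called higher in NP for 7 of 15 measured members and higher in AF for 2, with a median of 0.71. Lgals3 (galectin-3, a sugar-binding lectin) had 18.06, 18.14, 18.54 and 18.16 in NP, against 14.97, 15.85, 16.51 and 15.03 in AF (difference 2.63, SE 0.26, adjusted p = 0.00013). Ncam1, an adhesion molecule of the immunoglobulin family, had 16.63 ± 0.36 in NP and 14.87 ± 0.36 in AF (1.76, SE 0.25, adjusted p = 0.00106). Cd24a, a glycosylated surface protein used to sort NP cells, had 18.65, 18.31, 18.37 and 18.54 in NP, against 16.67, 16.30, 17.12 and 17.12 in AF (1.66, SE 0.24, adjusted p = 0.00131). Cav1, which forms caveolae, differed by 1.41 (SE 0.26, adjusted p = 0.00476). Tek, the angiopoietin receptor proposed as a marker of NP progenitors and known from vessels, was under background in both tissues (4.37 in NP and 6.10 in AF) and, with Ckap4, was 1 of the 2 called higher in AF. Ckap4 lost its call without animal 1 or 2 (adjusted p up to 0.0818). Vim was near the top of the scale, at 19.9 in both. Without animal 1, or without animal 4, the count higher in NP was 4 in place of 7. Among heparan sulfate carriers, which capture growth factors at the surface, Gpc3 (17.24 ± 0.29 in NP and 15.18 ± 0.72 in AF, 2.06, adjusted p = 0.00085) and Gpc4 (1.45, adjusted p = 0.00196) were higher in NP. Sdc1 was higher in AF (8.85 ± 0.20 in NP and 11.75 ± 0.74 in AF, -2.90, adjusted p = 7.2e-05).

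Genes that respond to low oxygen were higher in NP. Of 20 measured genes of this list, 11 were called higher in NP and 1 higher in AF, and the median difference was 0.96. The prolyl hydroxylases Egln3 and Egln1, which mark hypoxia-inducible factors for destruction and are themselves induced by low oxygen, were both higher in NP. Egln3 had 14.60, 15.02, 15.18 and 15.62 in NP, against 11.04, 12.58, 12.16 and 13.07 in AF (difference 2.89, SE 0.26, adjusted p = 5.5e-05, 7.43-fold). Ndrg1, a stress-induced differentiation gene, had 16.16, 16.02, 16.82 and 16.22 in NP, against 12.95, 14.38, 13.97 and 13.24 in AF (2.67, SE 0.29, adjusted p = 0.0002). Bnip3, which drives removal of mitochondria, had 14.17, 14.11, 15.32 and 14.49 in NP, against 11.30, 12.31, 12.18 and 11.96 in AF (2.58, SE 0.27, adjusted p = 0.00016). In all 3 genes the lowest NP array was above the highest AF array, and AF array 1 was the lowest of all 8. The lack of overlap holds by choice, since these genes are among the 20 with the largest rise in NP, which had to have none. Adm (adrenomedullin, a vasodilator peptide) was higher by 2.15 (SE 0.36, adjusted p = 0.003), Bnip3l by 1.35 and Vegfa, the vascular growth factor, by 1.07. The gene for the oxygen-regulated subunit itself, Hif1a, was higher in AF, with 13.43 ± 0.37 in NP and 14.44 ± 0.56 in AF (-1.0, SE 0.28, adjusted p = 0.0389). That call was lost under median centring and without animals 1, 2 or 4 (adjusted p up to 0.128). Epas1 and Vhl were not called. The count of 11 was 6 without animal 1 and 7 without animal 4.

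Glycolysis genes were also higher in NP. Of 22 measured genes from glucose uptake to lactate, 12 were called higher in NP and 0 higher in AF, with a median of 0.82. At the entry, the transporter Slc2a3 had 12.06, 10.67, 11.19 and 11.29 in NP, against 9.18, 8.69, 8.45 and 9.09 in AF (difference 2.45, SE 0.25, adjusted p = 0.00013), and Slc2a1 was higher by 1.16. Along the pathway, the hexokinase Hk2 was higher by 1.70, the liver-type phosphofructokinase Pfkl by 1.57, Aldoa by 1.42, Tpi1 by 1.19, Pgk1 by 1.37 and Ldha, which makes lactate, by 0.79. Pfkfb3, which makes the activator of phosphofructokinase, differed by 1.78 (SE 0.23, adjusted p = 0.00072). Pgam1 had 12.60 ± 0.33 in NP and 10.77 ± 0.33 in AF (1.84, SE 0.23, adjusted p = 0.00052). Eno2, a neuronal-type enolase, had 9.41, 8.54, 9.34 and 8.98 in NP, against 6.38, 6.74, 6.68 and 6.65 in AF, which is close to background (2.46, SE 0.26, adjusted p = 0.00017). Hk1 and Pkm were not called, nor were the muscle forms Pgam2 and Eno3, both near background. The lactate exporter Slc16a3 was higher in NP by 1.32 (SE 0.25, adjusted p = 0.00562), and Car9, a carbonic anhydrase at the cell surface, by 1.22 (SE 0.31, adjusted p = 0.0269). Car9 lost its call without animal 1 or 3, and in both fits on 16 arrays (adjusted p up to 0.126). Of 16 measured carbonic anhydrases, 3 were called higher in NP and 2 higher in AF, where 6.64% and 8.19% of all genes were. Car12 was higher in AF, with 4.93 ± 0.40 in NP, under background, and 8.50 ± 2.36 in AF (-3.57, SE 0.65, adjusted p = 0.00488). Car12 lost its call with an intensity trend (adjusted p = 0.0627).

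Promoters of Egln3, Bnip3 and Pgam1 are shown because these genes moved together and because the core of the element that hypoxia-inducible factors bind can be read in them. Each is the RefSeq window of 300 bases on GRCm38.p6, from 250 before to 50 after the gene's start, 5′ to 3′ on the gene's strand, with ACGTG or GCGTG, or their reverse complements CACGT and CACGC, in capitals where matches may overlap. Egln3 lies on the minus strand at chr12:54203825-54204124, Bnip3 on the minus strand at chr7:138909457-138909756 and Pgam1 on the plus strand at chr19:41911621-41911920.
Egln3: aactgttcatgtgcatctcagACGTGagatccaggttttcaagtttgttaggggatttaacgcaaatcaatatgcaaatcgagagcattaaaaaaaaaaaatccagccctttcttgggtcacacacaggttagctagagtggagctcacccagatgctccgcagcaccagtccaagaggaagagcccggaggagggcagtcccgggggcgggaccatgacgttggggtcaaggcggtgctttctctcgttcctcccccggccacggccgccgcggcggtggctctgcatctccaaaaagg
Bnip3: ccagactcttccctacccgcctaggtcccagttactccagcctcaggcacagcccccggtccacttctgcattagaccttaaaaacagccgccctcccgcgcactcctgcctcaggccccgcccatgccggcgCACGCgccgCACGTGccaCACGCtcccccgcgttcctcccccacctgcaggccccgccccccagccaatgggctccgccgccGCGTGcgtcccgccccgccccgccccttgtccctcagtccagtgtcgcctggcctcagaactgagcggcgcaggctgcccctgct
Pgam1: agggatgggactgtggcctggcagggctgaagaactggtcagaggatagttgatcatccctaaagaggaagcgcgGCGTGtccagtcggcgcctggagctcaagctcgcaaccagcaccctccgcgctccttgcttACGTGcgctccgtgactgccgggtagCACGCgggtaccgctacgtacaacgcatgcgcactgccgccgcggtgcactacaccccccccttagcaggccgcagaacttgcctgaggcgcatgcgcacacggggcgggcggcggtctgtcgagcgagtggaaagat
The Egln3 window holds 1 match, the Bnip3 window 5 and the Pgam1 window 3. Of the 20 hypoxia genes 17 had a window, and 14 of these held at least 1 match. Of 22 glycolysis genes 21 had a window, and 15 held a match. Over all 27025 genes with a window, 1 for each, 43.8% held a match. ACGTG or its complement alone was present in 10 of the 17 hypoxia windows, in 9 of the 21 glycolysis windows and in 19.7% of all windows. Among genes called higher in NP, it was present in 5 of 9 hypoxia windows and in 6 of 11 glycolysis windows. In the hypoxia list it was thus not confined to genes called higher in NP. These letters describe the windows and show no binding.

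Most genes of mitochondrial respiration were not called. Of 71 respiratory chain subunits, 6 (Atp5g1, Atp5g2, Ndufa8 and Cox6b1 among them) were called higher in NP, 1 higher in AF and 64 were not called, with a median of 0.23 (0.36 after centring). That share is near the 6.64% over all genes. Without animal 1 the counts were 0 and 0, without animal 4 they were 2 and 1, and on all 16 arrays with the animal as a random block 10 and 3. Large ribosomal proteins were called higher in NP for 3 of 29 and higher in AF for 1, with a median of 0.47 (0.60 after centring and 0.20 after quantile normalisation, where 2 were called each way). The 3 became 1 without animal 1, 3 or 4, 6 without animal 2 or without the animal block, and 7 and 8 in the fits on 16 arrays. Their probe sets may also take up signal from near-identical copies.

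Salt and volume handling is known to matter in the core, where charged proteoglycans hold water. Of 23 sodium pump and chloride channel genes, 6 were called higher in NP and 3 higher in AF. Clic5, an intracellular chloride channel protein tied to actin, had 14.00 ± 0.32 in NP and 11.78 ± 0.54 in AF (difference 2.22, SE 0.24, adjusted p = 0.00022). Atp1b2, a beta subunit of the sodium pump, was higher in NP by 1.75 (SE 0.30, adjusted p = 0.0033) and the chloride-proton exchanger Clcn3 by 1.56 (SE 0.30, adjusted p = 0.00634). The pump modulators of the FXYD family split, with Fxyd6 higher in NP (1.36, SE 0.29, adjusted p = 0.0114) and Fxyd1, Fxyd2 and Fxyd3 higher in AF (-2.31, -2.99 and -2.33). Fxyd6 lost its call without animal 1 (adjusted p = 0.0618), and Fxyd2 without animals 1, 2 or 4 and with an intensity trend (up to 0.175). Of 21 genes for water channels and osmolyte transport, 2 were called higher in NP and 5 higher in AF. The count in NP is near the 6.64% over all genes, where 8.19% were higher in AF. Slc12a2, the sodium-potassium-chloride cotransporter, had 18.50, 18.20, 18.34 and 18.14 in NP, against 15.93, 15.86, 17.26 and 16.88 in AF (1.82, SE 0.30, adjusted p = 0.00263), and the betaine transporter Slc6a12 was higher by 1.99 (SE 0.26, adjusted p = 0.00076). The osmosensitive channel Trpv4 had 8.07 ± 0.54 in NP and 11.54 ± 0.68 in AF (-3.47, SE 0.39, adjusted p = 0.00025). Nfat5, the transcription factor of the osmotic response, had 9.57 ± 0.19 in NP and 11.19 ± 0.67 in AF (-1.62, SE 0.32, adjusted p = 0.00685). The water channel Aqp1, which vessels also express, was higher in AF (-2.65, SE 0.32, adjusted p = 0.00045).

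The 20 genes with the largest rise in NP included many outside these families. Inmt, a methyltransferase of indole amines, had 14.47, 14.72, 14.68 and 14.22 in NP, against 10.56, 10.13, 12.85 and 11.29 in AF (difference 3.31, SE 0.39, adjusted p = 0.00037, 9.94-fold). Rgs9bp, an anchor of a G protein regulator, had 14.35, 14.44, 14.57 and 14.42 in NP, against 10.48, 10.82, 11.80 and 11.82 in AF (3.21, SE 0.27, adjusted p = 4.6e-05). Receptors of nerve transmitters were among them, the muscarinic Chrm2 (2.79, SE 0.26, adjusted p = 7.2e-05) and Tacr1, which binds substance P (2.73, SE 0.26, adjusted p = 9.2e-05). Chrm2 had 13.67 ± 0.48 in NP and 10.88 ± 0.68 in AF, and Tacr1 15.76 ± 0.40 in NP and 13.03 ± 0.73 in AF. Acvr2a, a receptor of activins, differed by 2.51 (SE 0.26, adjusted p = 0.00016). The rest were Zbtb8b, Frmd5, Ranbp3l, Plcl1, Arhgef16, Ddit4l, Slc15a5 and Usp29, with differences from 2.52 to 2.85, and the desmosome, hypoxia and surface genes given above. Of 33 measured FGF pathway genes, 2 were called higher in NP and 7 higher in AF, with a median of -0.18. The count in NP is near the 6.64% over all genes, where 8.19% were higher in AF. The 2 were the ligand Fgf1 (13.17 ± 0.38 in NP and 10.83 ± 0.49 in AF, 2.34, adjusted p = 0.00022) and Fgf11 (8.93 ± 0.51 in NP and 6.99 ± 0.48 in AF, 1.94, adjusted p = 0.00092). Among the 7 were the receptors Fgfr3 (10.13 ± 0.47 in NP and 13.49 ± 1.13 in AF, -3.36, adjusted p = 0.00117) and Fgfr1 (-1.92, adjusted p = 0.00673), and Etv5, a transcription factor induced by the pathway (-2.01, adjusted p = 0.00141). Of 29 measured axon guidance receptors, 4 were called higher in NP and 5 higher in AF, where the shares over all genes were 6.64% and 8.19%. Among them, Neo1 was higher in AF (9.85 ± 0.38 in NP and 13.84 ± 0.57 in AF, -3.99, adjusted p = 2.5e-05). The ephrin receptor Epha4 was higher in NP (11.79 ± 0.14 in NP and 9.29 ± 0.66 in AF, 2.50, adjusted p = 0.0003). Timp3, an inhibitor of metalloproteinases, was also higher in NP (15.66 ± 0.35 in NP and 13.44 ± 0.49 in AF, 2.22, adjusted p = 0.00062), as was the BMP target Id4 (1.73, adjusted p = 0.00089).

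The collagens of tendon and ligament were higher in AF. Of 20 fibril and fibril-associated collagens, 12 were called higher in AF and 1 higher in NP, with a median of -1.05, where 8.19% of all genes were called higher in AF. Col1a2, a chain of type I collagen, had 7.21, 9.02, 9.06 and 7.56 in NP, against 18.06, 18.44, 18.25 and 17.65 in AF (difference -9.89, SE 0.30, adjusted p = 3.8e-08). Col1a1, the other chain, had 8.78, 9.32, 9.63 and 8.77 in NP, against 17.43, 17.71, 17.36 and 16.39 in AF (-8.10, SE 0.26, adjusted p = 4.6e-08). Col3a1 had 5.50 ± 0.21 in NP, under background, and 12.75 ± 1.95 in AF (-7.25, SE 0.54, adjusted p = 1.8e-05). The 3 common chains of type VI collagen, which surrounds cells of both tissues, differed less, by -2.75 for Col6a1, -2.31 for Col6a2 and -2.32 for Col6a3. The single member called higher in NP, Col6a6, had a mean of only 6.3 there.

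The proteoglycans and glycoproteins that organise such fibrils followed. Of 13 small leucine-rich proteoglycans, 9 were called higher in AF and 0 higher in NP (median -3.10). Dcn (decorin) had 6.18, 6.86, 10.65 and 6.67 in NP, against 17.70, 18.61, 18.62 and 16.15 in AF (difference -10.17, SE 0.53, adjusted p = 1.4e-06). NP array 3 stood above the other NP arrays and still lay far under every AF array. Bgn (biglycan) had 11.32 ± 0.55 in NP and 17.50 ± 0.52 in AF (-6.18, SE 0.32, adjusted p = 1.4e-06), and Ecm2 5.60 ± 0.42 in NP and 14.71 ± 1.11 in AF (-9.11, SE 0.41, adjusted p = 5e-07). Lum, Ogn, Aspn, Omd, Prelp and Podn were the other 6. Of 25 thrombospondins and matricellular proteins, 13 were called higher in AF and 2 higher in NP (median -2.09). Thbs1, which activates latent TGF-beta, had 4.20, 4.50, 4.73 and 4.63 in NP, against 15.06, 16.22, 15.86 and 13.91 in AF (-10.75, SE 0.35, adjusted p = 4.9e-08). Thbs2 differed by -4.59, Thbs3 by -4.21, Tgfbi by -5.98 and Ccn2 by -4.07. Ccn3 went the other way (14.85 ± 0.54 in NP and 13.03 ± 0.90 in AF, 1.83, adjusted p = 0.00216), and Fn1 (fibronectin) was not called. Of 23 elastic fibre genes, 12 were called higher in AF and 1 higher in NP. Lox, which crosslinks collagen and elastin, had 5.86, 5.48, 5.89 and 5.50 in NP, against 11.71, 12.18, 12.02 and 11 in AF (-6.05, SE 0.26, adjusted p = 3.3e-07). Fbln1 and Efemp1 differed by -5.38 and -4.54, while Eln (elastin) was not called (8.5 in NP and 8.6 in AF).

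**Figure D3:**
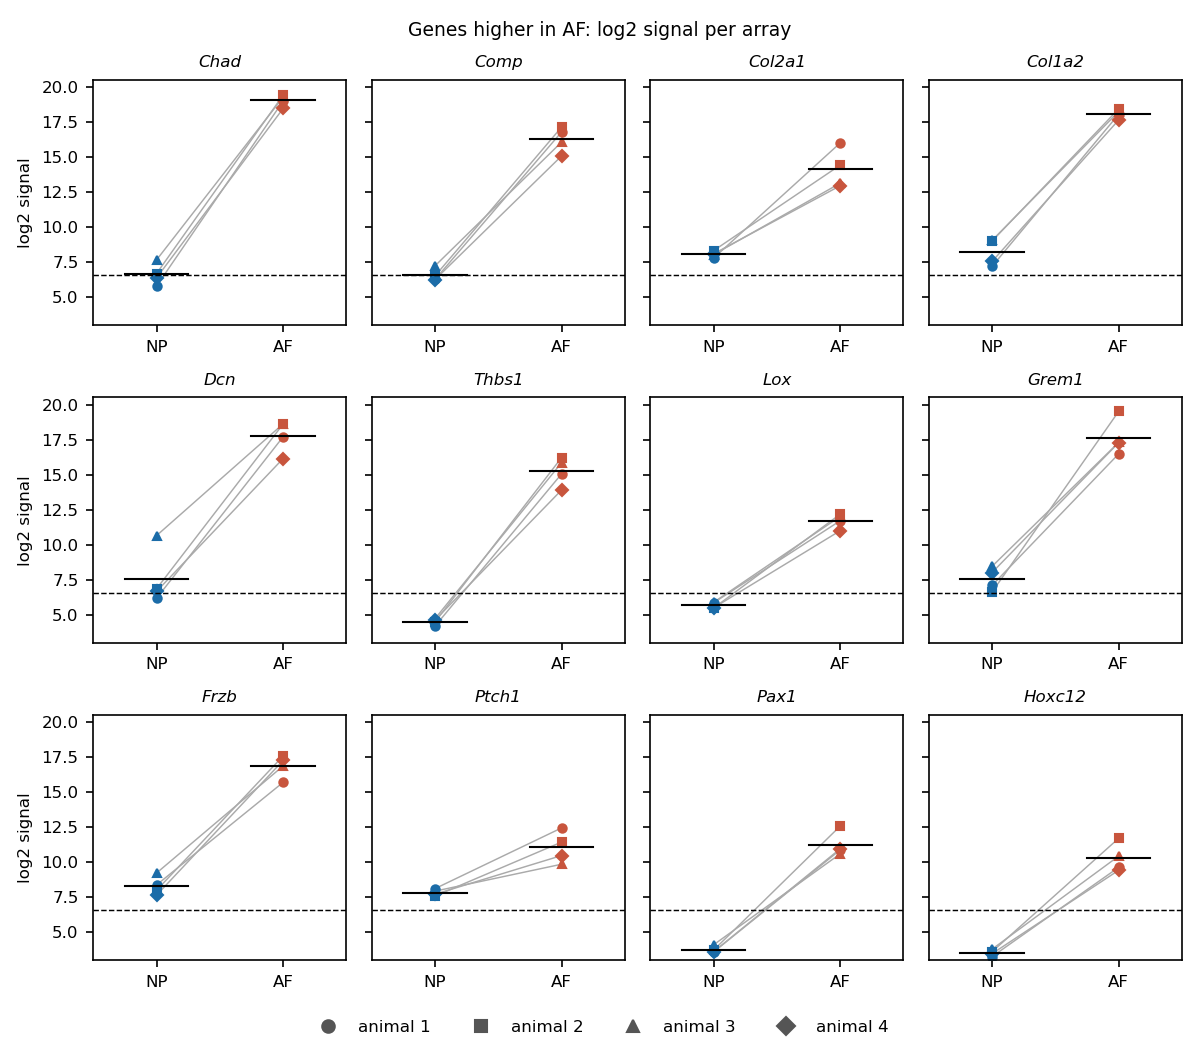
Log2 signal (vertical) of 12 genes called higher in AF, drawn as in the plot of genes higher in NP, with NP arrays in blue on the left and AF arrays in red on the right of each panel. The tissues do not overlap in any panel, as for 22.6% of all probe sets. For Chad, Comp, Col1a2, Dcn, Thbs1, Grem1, Frzb and Pax1 this holds by choice. They are among the 20 genes with the largest rise in AF, which had to have no overlap. The NP means of Comp, Thbs1, Lox, Pax1 and Hoxc12 lie under the dashed background line of 6.59.

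Genes best known from cartilage were also higher in AF. All 7 called of 8 cartilage collagens were higher in AF (median -3.39). Col2a1, the main collagen of cartilage, had 7.80, 8.33, 8.05 and 8.10 in NP, against 16.01, 14.43, 13.14 and 12.96 in AF (difference -6.06, SE 0.46, adjusted p = 2e-05). Col11a1 differed by -4.23, Col27a1 by -4.67, Col9a3 by -2.55 and Col9a1 by -2.45. Of 19 small chondrocyte proteins and matrilins, 15 were called higher in AF and 0 higher in NP (median -4.83). Chad (chondroadherin), which binds collagen and integrins, had 5.80, 6.70, 7.67 and 6.39 in NP, against 19.00, 19.42, 19.28 and 18.47 in AF (-12.40, SE 0.29, adjusted p = 1.2e-08). Outside that list, Clec3a, a lectin of cartilage, had 6.04 ± 1.32 in NP and 18.23 ± 0.85 in AF (-12.18, SE 0.47, adjusted p = 1.8e-07), and within it Cytl1, a secreted chondrocyte protein, had 8.01 ± 0.46 in NP and 18.59 ± 0.61 in AF (-10.59, SE 0.32, adjusted p = 3.8e-08). Comp, a pentameric thrombospondin of cartilage and tendon, had 6.28, 6.53, 7.25 and 6.27 in NP, against 16.80, 17.15, 16.08 and 15.09 in AF (-9.70, SE 0.35, adjusted p = 1e-07). Vcan (versican) had 7.13 ± 0.87 in NP and 17.34 ± 0.73 in AF (-10.21, SE 0.31, adjusted p = 3.8e-08), and Prg4 (lubricin) 7.90 ± 0.55 in NP and 16.13 ± 1.20 in AF (-8.23, SE 0.43, adjusted p = 1.4e-06). The link protein Hapln1 differed by -2.18 (15.18 ± 0.33 in NP and 17.36 ± 0.73 in AF, adjusted p = 0.00158), and Snorc, a chondrocyte proteoglycan, was not called.

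Within AF, part of these genes varied widely between animals. Cnmd (chondromodulin), an inhibitor of vessel growth in cartilage, had 5.73, 6.37, 6.20 and 5.81 in NP, against 18.39, 17.43, 13.12 and 16.27 in AF (difference -10.28, SE 0.69, adjusted p = 7.9e-06). Matn3 had 4.10, 3.66, 3.98 and 3.76 in NP, against 15.82, 12.69, 6.03 and 10.26 in AF (-7.33, SE 1.13, adjusted p = 0.00191). Col10a1, the collagen of hypertrophic cartilage, had 6.42, 5.65, 6.90 and 4.57 in NP, against 17.40, 14.26, 9.47 and 11.71 in AF (-7.33, SE 0.98, adjusted p = 0.00079). In all 3 genes AF array 1 was highest and AF array 3 lowest. With an intensity trend and robust moderation, Matn3 and Col10a1 were no longer called (adjusted p = 0.0708 and 0.0504). The order of AF array 1 highest and AF array 3 lowest also held for Col27a1, Col9a3 and Hapln1. It held for the mean of the 8 cartilage collagens, at 12.67, 10.97, 9.36 and 10.27 in AF arrays 1 to 4. The mean of the 19 small chondrocyte proteins and matrilins shared it, at 12.61, 12.30, 10.55 and 11.33. Chad, Col1a2, Thbs1 and Cytl1 did not share that order, and varied by under 3 between AF arrays. Among genes of other groups, Ptch1, Fgfr3, Gjc3, Chrdl1, Bmp3 and Omd shared the order, while Gli1, Smo, Tgfb1, Grem1, Frzb and Wif1 did not.

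The same order held for markers of mineralizing tissue. Of 13 genes of hypertrophic cartilage and bone, 11 were called higher in AF and 0 higher in NP (median -4.43). Their mean signal was between 5.62 and 5.72 in the NP arrays, against 11.81, 10.36, 8.38 and 9.48 in AF arrays 1 to 4. Mmp13 had 6.10 ± 0.47 in NP, against 16.30, 12.60, 9.68 and 12.05 in AF (-6.56, SE 0.79, adjusted p = 0.00042), and Alpl, the mineralizing phosphatase, 4.33 ± 0.21 in NP, against 12.38, 11.21, 8.55 and 9.30 in AF (-6.03, SE 0.57, adjusted p = 9.1e-05). Ibsp (bone sialoprotein) differed less between animals, with 6.96, 6.64, 7.50 and 6.62 in NP, against 17.84, 16.49, 16.30 and 16.86 in AF (-9.94, SE 0.32, adjusted p = 4.6e-08). The mean of 12 osteoclast markers was 6.08 to 6.16 in NP, against 9.33, 8.04, 6.44 and 7.76 in AF, with 5 called higher in AF and 0 in NP. The 5 became 2 with an intensity trend and 3 in both fits on 16 arrays. Acp5, the osteoclast phosphatase, had 5.14 ± 0.31 in NP, against 15, 11.23, 7.06 and 11.11 in AF (-5.96, SE 0.89, adjusted p = 0.00161), and lost its call with the intensity trend (adjusted p = 0.0649). The mean of 19 neutrophil markers was 5.86 to 7.17 in NP, against 10.27, 7.31, 6.15 and 7.04 in AF, where the tissues overlapped, with 3 called higher in AF and 0 in NP. Endothelial markers were called higher in AF for 13 of 19 and higher in NP for 1 (Flt1, by 1.32), with list means of 5.33 to 5.43 in NP, against 7.66, 6.77, 6.71 and 6.42 in AF. Skeletal muscle markers were called higher in AF for 9 of 29 and in NP for 0, with list means of 5.70 to 5.83 in NP, against 6.31, 6.37, 6.98 and 6.25 in AF. The 9 became 3 in both fits on 16 arrays. The part that endplate cartilage, bone, marrow, vessel or muscle tissue played in the differences was not tested.

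AF array 1 was also the lowest AF array for the simple keratins as a list. The mean of the simple keratins was 11.30 to 11.74 in NP, against 9.22, 10.01, 10.15 and 10.54 in AF. Among the 911 probe sets called higher in NP with a mean of at least 8, AF array 1 was the lowest AF array in 500 (54.9%), against 29.2% of all 8027 probe sets at that level. AF array 3 was the lowest in 7.79%, against 18.1%. The 911 were called from these same AF values, so a low AF array helps a probe set to be among them. No conclusion is therefore drawn from these shares. Without animal 1 the number of probe sets called higher in NP was 632, and the number higher in AF was 1023.

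**Figure D4:**
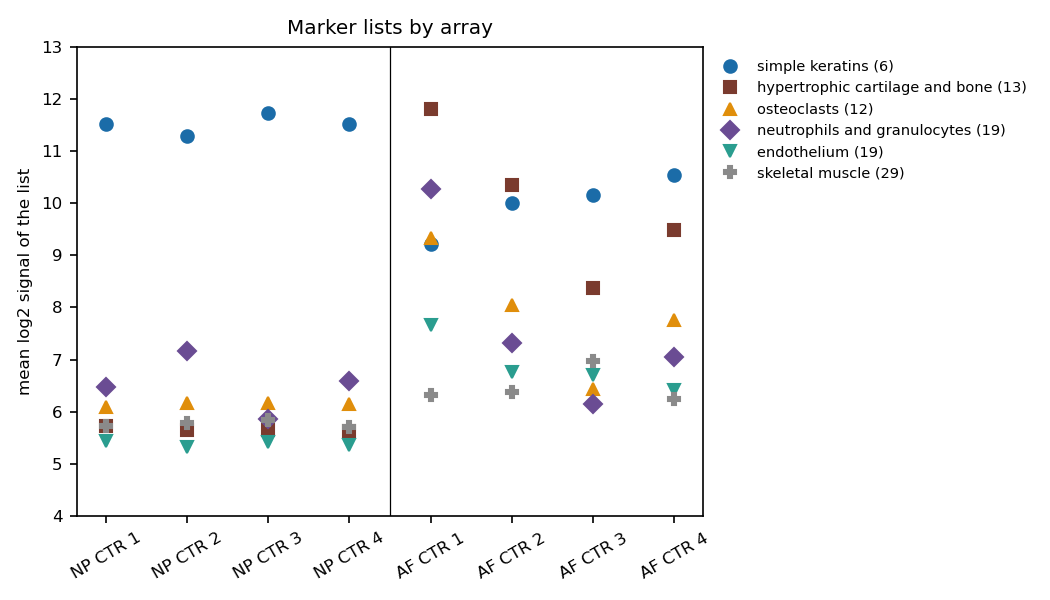
Mean log2 signal (vertical) of 6 marker lists in each of the 8 control arrays, NP on the left and AF on the right of the line, with the number of genes in brackets. Bone, osteoclast and neutrophil markers are highest in AF array 1, where the simple keratins are lowest, and bone markers are at 8.38 in AF array 3.

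Enzymes that make, fold and cut matrix were higher in AF as well. Of 25 genes for collagen processing, 11 were called higher in AF and 2 higher in NP. The paired transcription factors of collagen secretion split: Creb3l1 had 5.52 ± 0.15 in NP and 10.64 ± 0.72 in AF (difference -5.12, SE 0.32, adjusted p = 4.8e-06), and Creb3l2 15.64 ± 0.17 in NP and 14.24 ± 0.32 in AF (1.40, SE 0.24, adjusted p = 0.00315). Among prolyl hydroxylases, P4ha3 was higher in NP by 1.71 (SE 0.28, adjusted p = 0.0025), and P4ha1 and P4ha2 were not called. The collagen chaperone Serpinh1, the lysyl hydroxylases Plod1 and Plod2, the procollagen protease Bmp1 and its enhancer Pcolce2 were all higher in AF, with differences from -3.83 for Pcolce2 to -2.30 for Plod2. Of 39 genes for glycosaminoglycan synthesis, 11 were called higher in AF and 2 higher in NP, and the 2 became 0 without animal 1, 3 or 4. That count in NP is near the 6.64% over all genes. Csgalnact2, which starts chondroitin chains, had 10.29 ± 0.26 in NP and 13.86 ± 0.68 in AF (-3.57, SE 0.31, adjusted p = 5.4e-05). Of 16 matrix metalloproteinases, 8 were called higher in AF and 0 higher in NP, and the count was 5 without animal 1 or animal 4. Mmp3 (stromelysin) had 5.45, 6.40, 5.87 and 6.25 in NP, against 9.33, 12.86, 12.57 and 10.78 in AF (-5.39, SE 0.43, adjusted p = 3e-05), an order unlike that of Mmp13, and Mmp2 differed by -4.55. Of 17 ADAMTS proteases, 5 were called higher in AF, led by Adamts6 (-4.23, SE 0.30, adjusted p = 1.1e-05). Of 22 protease inhibitors, 11 were called higher in AF and 2 higher in NP, with Timp4 (-3.31) and Reck (-2.44) higher in AF and Timp3 higher in NP. Cst3 (cystatin C), abundant in both, had 16.21 ± 0.29 in NP and 19.46 ± 0.15 in AF (-3.25, SE 0.24, adjusted p = 1.5e-05).

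The Hedgehog pathway, by which notochord and NP act on neighbouring tissue, was called mainly on its receiving side. Of 10 receptors and transducers, 8 were called higher in AF and 0 higher in NP, with a median of -2.44, and the count was 8 without any 1 of the animals. Ptch1, the receptor and a target of the pathway, had 8.12, 7.59, 7.94 and 7.72 in NP, against 12.45, 11.44, 9.86 and 10.48 in AF (difference -3.21, SE 0.36, adjusted p = 0.00029). Gli1, the other common readout, had 6.02, 6.63, 6.02 and 5.58 in NP, at or near background, against 8.94, 9.73, 8.89 and 9.19 in AF (-3.13, SE 0.23, adjusted p = 1.8e-05). Ptch1 was highest in AF array 1 and lowest in AF array 3, the order of the bone markers. Gli1 was highest in AF array 2, as was the mean of the 10 genes (10.32, 10.72, 9.68 and 9.78 in AF arrays 1 to 4). The decoy receptor Hhip differed by -4.90, the signal transducer Smo by -2.79, and Gli2, Gli3, Boc and Gas1 were the other 4. On the sending side, 2 of 9 genes were called higher in NP and 1 higher in AF. Disp1, which releases the ligand, had 15.96, 15.52, 16.07 and 15.78 in NP, against 13.67, 13.92, 14.21 and 14.02 in AF (1.88, SE 0.23, adjusted p = 0.00048). Shh itself was not called, as given above. Ihh, the ligand of hypertrophic cartilage, was called higher in AF at means near background (5.8 in NP and 7.0 in AF).

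Many Wnt receptors, inhibitors and targets were higher in AF. Of 36 members, 18 were called higher in AF and 2 higher in NP (median -0.75). Over all genes, 8.19% were higher in AF and 6.64% higher in NP, so the 2 are near that share. Frzb, a secreted decoy of Wnt, had 8.38, 8.0, 9.23 and 7.65 in NP, against 15.70, 17.58, 16.87 and 17.26 in AF (difference -8.54, SE 0.40, adjusted p = 5.8e-07). Wif1, another, had 6.87, 6.85, 6.73 and 6.41 in NP, against 13.16, 13.32, 12.47 and 12.66 in AF (-6.19, SE 0.23, adjusted p = 1.4e-07). The receptor gene Fzd8 differed by -5.31, and Dkk3 by -3.63. Ror2 (1.04, adjusted p = 0.0199) and the inhibitor Sostdc1 (1.14, adjusted p = 0.00984) were higher in NP, and both lost their calls without animal 1. Ror2 also lost it without animal 3 or 4 (adjusted p up to 0.11), and Sostdc1 without the animal block and in both fits on 16 arrays (up to 0.275). Among 22 ligands, Wnt16 was higher in NP (10.81 ± 0.61 in NP and 8.87 ± 0.66 in AF, 1.93, SE 0.24, adjusted p = 0.0005), and 3 were called higher in AF.

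Ligands of the TGF-beta and BMP family were called higher in AF for 11 of 20 members and higher in NP for 0 (median -1.20). Tgfb1 had 8.09, 8.52, 9.28 and 8.86 in NP, against 13.26, 13.81, 12.57 and 12.89 in AF (difference -4.44, SE 0.34, adjusted p = 1.9e-05). Tgfb2 and Tgfb3, the other forms, were not called. Inhba, which forms activin A, had 6.11 ± 0.25 in NP and 9.66 ± 0.19 in AF (-3.55, SE 0.23, adjusted p = 6.2e-06), where its receptor Acvr2a was higher in NP. Bmp3 differed by -4.39, Gdf10 by -5.79 and Bmp6 by -2.67. Of 35 receptors, antagonists and targets, 12 were called higher in AF and 2 higher in NP. The BMP antagonist Grem1 (gremlin) had 7.10, 6.63, 8.46 and 8.02 in NP, against 16.48, 19.51, 17.30 and 17.28 in AF (-10.09, SE 0.55, adjusted p = 1.8e-06), and the antagonists Chrdl2 and Chrdl1 differed by -6.60 and -5.40. Of 17 IGF pathway genes, 9 were called higher in AF and 1 higher in NP (median -1.20). The ligand Igf1 differed by -3.10 (7.9 in NP and 11 in AF) and Igf2 by -2.40. The binding protein Igfbp7 had 12.02 ± 0.54 in NP and 16.64 ± 0.83 in AF (-4.62, SE 0.37, adjusted p = 2.6e-05), and Igfbp5 and Igfbp6 differed by -5.09 and -4.72. Their receptor Igf1r was higher in NP by 1.02 (SE 0.25, adjusted p = 0.0206), but without animal 1 or 4 it was no longer called (adjusted p up to 0.116).

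Transcription factors of sclerotome, tendon and fibrous tissue were higher in AF for 19 of 30 members and higher in NP for 1 (median -1.54). Pax1, the sclerotome factor, had 3.60, 3.73, 4.11 and 3.62 in NP, against 10.88, 12.58, 10.60 and 10.96 in AF (difference -7.49, SE 0.34, adjusted p = 5.8e-07). Foxc1 differed by -4.96, Foxf2 by -4.95, Tbx15 by -3.87 and the tendon factor Mkx by -2.55. For all of these the NP mean was under background. Barx2 was the exception (11.05 ± 0.35 in NP and 10.04 ± 0.63 in AF, 1.01, SE 0.23, adjusted p = 0.0157), and lost its call without animal 1 (adjusted p = 0.0974). Of the chondrogenic factors beside Sox9, Sox6 was higher in NP (12.42 ± 0.13 in NP and 11.41 ± 0.25 in AF, 1.01, adjusted p = 0.0153) and Sox5 higher in AF (9.60 ± 0.09 in NP and 10.38 ± 0.23 in AF, -0.78, adjusted p = 0.0444). Sox6 lost its call without animal 1 or 4 (adjusted p up to 0.0916), and Sox5 without any 1 of the 4, under median centring and with an intensity trend (up to 0.197).

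Hox genes, which give position along the body axis, were called in both directions. Of 33 measured, 5 were called higher in NP and 13 higher in AF. The 5 were Hoxd8, Hoxd9, Hoxd10, Hoxa2 and Hoxa5, and each had an NP mean of at least 8. Hoxd10 had 8.45, 8.79, 8.95 and 8.51 in NP, against 5.79, 7.28, 6.82 and 6.71 in AF (difference 2.03, SE 0.25, adjusted p = 0.00053). Hoxa5 had 10.62 ± 0.51 in NP and 9.33 ± 0.53 in AF (1.29, SE 0.22, adjusted p = 0.00346). Of the 13 called in AF, Hoxc12 and Hoxb7 reached a mean of 8. Hoxc12 had 3.27, 3.62, 3.80 and 3.48 in NP, against 9.64, 11.71, 10.44 and 9.43 in AF (-6.76, SE 0.33, adjusted p = 8.7e-07). Other called members of the Hoxc cluster were Hoxc4, Hoxc6, Hoxc8, Hoxc10, Hoxc11 and Hoxc13, with NP means under background. Since lumbar and tail discs were pooled, the level of the spine at which a gene differed cannot be read. Without animal 1 the count higher in NP was 2, without animal 2 or 4 it was 3. Hoxa2 lost its call in each of these 3 fits (adjusted p up to 0.102), and Hoxd9 without animal 1 (0.0592).

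Stress and growth genes differed in single members. Of 22 immediate early genes, which respond within minutes to handling and load, 1 was called higher in NP and 4 higher in AF, while Fos, Jun and Egr1 were not called. Over all genes, the shares were 6.64% in NP and 8.19% in AF. Without animal 2 the count higher in NP was 4, and the count higher in AF was 8 without animal 3 and 2 without animal 4. Klf6 had 15.35 ± 0.61 in NP and 13.13 ± 0.58 in AF (difference 2.22, SE 0.38, adjusted p = 0.00356), and Nr4a2 had 7.32, 6.94, 6.74 and 7.28 in NP, against 12.73, 13.09, 11.68 and 13.32 in AF (-5.63, SE 0.26, adjusted p = 6.2e-07). Of 20 genes for chaperones of the endoplasmic reticulum and the unfolded protein response, 7 were called higher in AF and 2 higher in NP. The 2 were Ddit3, a stress transcription factor (0.91, adjusted p = 0.0428), and Sel1l, an adaptor of protein degradation (0.95, adjusted p = 0.0257). Hspa5 (BiP) had 14.82 ± 0.24 in NP and 16.32 ± 0.53 in AF (-1.50, SE 0.28, adjusted p = 0.00546). The 2 higher in NP were 0 without animals 1, 3 or 4, and 1 without animal 2. The count of 7 was 3 without animal 1, and 4 without animal 2 or 4 and under centring. Of 19 prostanoid genes, 7 were called higher in AF and 0 higher in NP, with Ptgis (prostacyclin synthase) at 7.31 ± 0.33 in NP and 13.73 ± 0.67 in AF (-6.41, SE 0.27, adjusted p = 3.3e-07). Clu (clusterin), a secreted chaperone, had 13.73 ± 0.77 in NP and 18.76 ± 0.58 in AF (-5.04, SE 0.29, adjusted p = 2.8e-06). Sod3, the extracellular superoxide dismutase, had 4.15, 3.88, 4.74 and 4.10 in NP, against 12.48, 15.15, 13.93 and 12.50 in AF (-9.30, SE 0.43, adjusted p = 5.8e-07), and the secreted phospholipase Pla2g2a 6.53 ± 0.34 in NP and 16.01 ± 0.60 in AF (-9.48, SE 0.31, adjusted p = 4.6e-08).

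**Figure D5:**
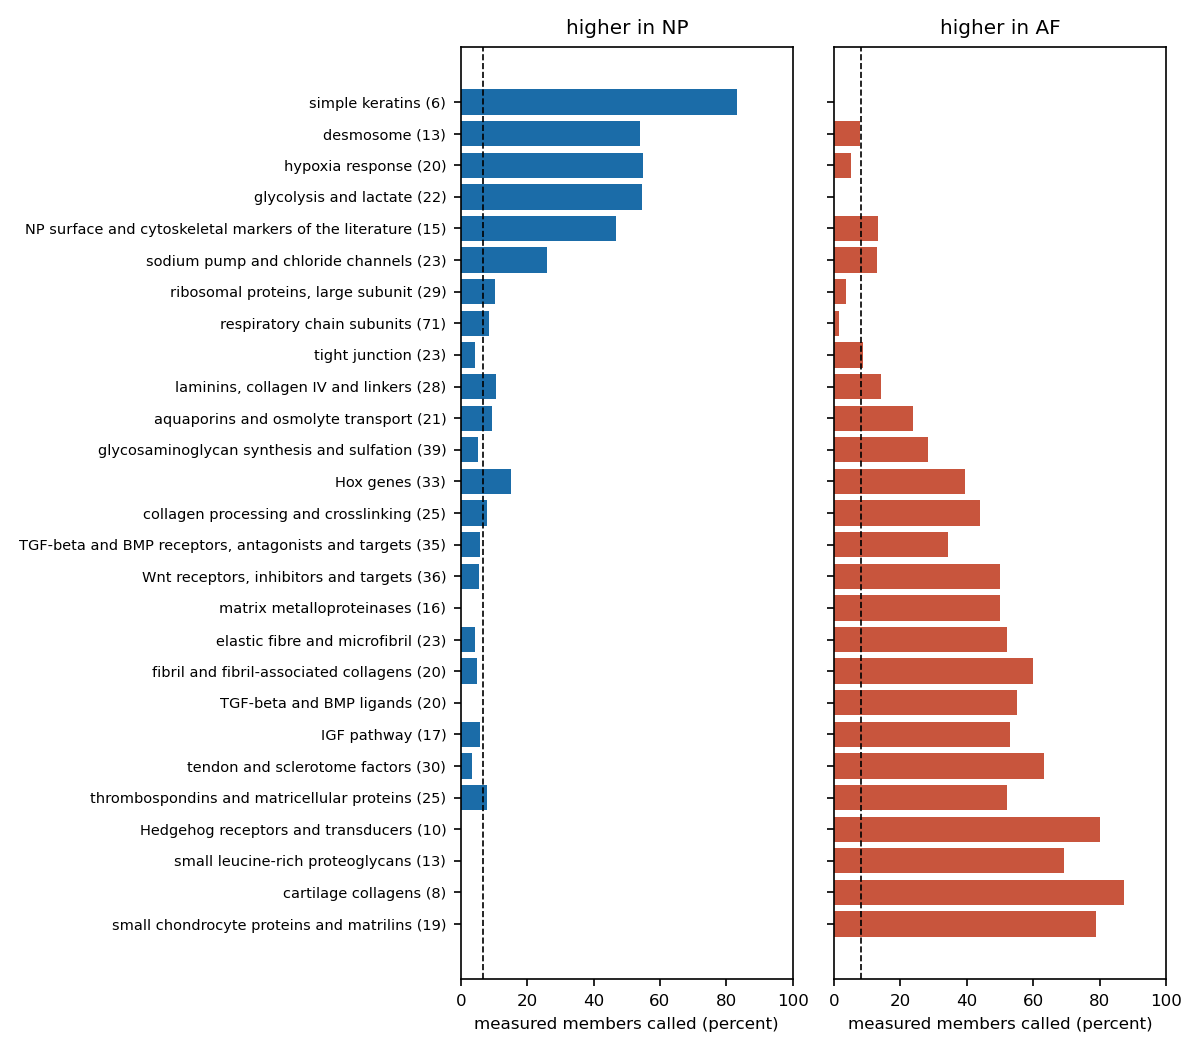
Share of measured members (horizontal, percent) called higher in NP (left panel) and higher in AF (right panel) for 27 gene groups, with the number measured in brackets; dashed lines mark the shares over all genes, 6.64% and 8.19%. The groups drawn were picked from 65. Bars that pass the line in the NP panel include keratins, desmosome, hypoxia, glycolysis, NP surface markers, sodium pump and Hox genes. Laminin, ribosomal, osmolyte and respiratory chain bars pass it there by less. Matrix, Hedgehog, Wnt, TGF-beta and IGF bars are among those that pass it in the AF panel.

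The 20 largest differences in each direction were also read in the cKO animals, which took no part in their choice. All 20 genes higher in control NP were higher in cKO NP than in cKO AF, by 1.27 to 2.89 with a median of 2.19, against 2.51 to 3.31 with a median of 2.71 in controls. In cKO the tissues did not overlap for 13 of the 20, where 14.3% of all probe sets were apart with NP higher. All 20 genes higher in control AF were higher in cKO AF, with sizes of 3.04 to 10.88 and a median of 7.75, against 7.33 to 12.40 and 9.79 in controls. The tissues did not overlap in cKO for 19 of these 20, where 12.5% of all probe sets were apart with AF higher. The control sizes are the values by which these genes were chosen, so they tend to be larger for that reason alone. The cKO values are of another genotype, and the difference between genotypes was not tested here.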

How the data were processed

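Values came from the table of all arrays, whose log2 signals the authors made with sst-RMA, per the labels; the submitters' processing notes name the Transcriptome Analysis Console, without a version. RNA had been prepared from NP and AF micro-dissected from 4 animals, 1 array for each tissue and animal. Of 28846 rows, 6640 control rows were left out and 22206 probe sets kept, of which 19572 have 1 gene symbol (19505 genes) and 2634 none. Nothing was normalised further, and no control array was dropped. Within a tissue, arrays correlated at 0.963 to 0.983, and between tissues at 0.911 to 0.944. The precision of a difference is limited by the number of arrays, and no read depth applies.

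NP and AF were compared with limma 3.58.1 in R 4.3.3, with the animal as a block and empirical Bayes moderation, and p-values were adjusted by Benjamini-Hochberg over all 22206 probe sets. The block was part of the planned main fit because tissues with the same code came from the same animal. Deviations of an animal's 2 tissues from their group means correlated at 0.11, -0.293, -0.057 and 0.058 for animals 1 to 4. The alternatives were fits without the block, on all 16 arrays, after median centring or quantile normalisation, on probe sets with a mean of at least 8, with 1 probe set per gene, with an intensity trend, and without each animal, and other thresholds.

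Genes were named by rule: the 20 largest called differences in each direction with a mean of at least 8, all pairs alike and tissues not overlapping; up to 4 called members per list and direction; the tissue markers; and up to 3 members of lists with no call. Further list members were named after their values were seen. The members and lists were chosen with earlier results of these data known. Of 1435 list genes, 1332 were measured; lists were counted and not tested. Promoter windows are RefSeq's on GRCm38.p6, read with Python 3.11.15. The fit was tested on simulated data.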

Additional observations from a re-analysis of the deposited data

Results flagged for a closer look

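Of 540 groups of 4 arrays among the named genes, 17 (3.15%) held 1 array set apart from the other 3 by Dixon's ratio, where chance gives about 1 group in 20. In no group was the array NP CTR 1.

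In NP, 7 groups were set apart. Dcn was 10.65 in NP CTR 3, above the other 3 at 6.18 to 6.86. Epha4 was 11.58 in NP CTR 4, below the other 3 at 11.84 to 11.87. Fzd8 was 7.15 in NP CTR 2, below the other 3 at 7.39 to 7.42. Insig1 was 8.34 in NP CTR 4, below the other 3 at 8.59 to 8.64. Krt7 was 10.74 in NP CTR 2, below the other 3 at 11.38 to 11.48. Pdia6 was 9.71 in NP CTR 3, above the other 3 at 8.42 to 8.54. Rpl38 was 15.85 in NP CTR 3, above the other 3 at 15.11 to 15.23.

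In AF, 10 groups were set apart. Ckm was 8.66 in AF CTR 2, below the other 3 at 9.39 to 9.53. Col4a2 was 7.54 in AF CTR 4, below the other 3 at 8.19 to 8.26. Extl3 was 11.19 in AF CTR 2, above the other 3 at 10.15 to 10.31. Fcgr3 was 9.98 in AF CTR 1, above the other 3 at 7.54 to 7.88. Fgf11 was 6.27 in AF CTR 1, below the other 3 at 7.22 to 7.24. Fgfrl1 was 13.57 in AF CTR 2, above the other 3 at 12.34 to 12.54. Lrrc8c was 7.39 in AF CTR 4, below the other 3 at 8.42 to 8.52. Maml2 was 10.01 in AF CTR 1, below the other 3 at 10.49 to 10.57. Nrp2 was 10.69 in AF CTR 4, below the other 3 at 11.49 to 11.62. Sparcl1 was 15.39 in AF CTR 3, above the other 3 at 14.20 to 14.38.

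Dcn and Fcgr3 show the widest gaps. For Dcn the AF arrays all stayed above NP CTR 3, and for Fcgr3, an Fc receptor of myeloid cells, every AF array stayed above every NP array. The source of these single values was not tested.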

How the results depend on the processing

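As reported, 1431 probe sets were called higher in NP and 1736 higher in AF, 3167 in all. Without the replicate block the counts were 1903, 2071 and 3974. On all 16 arrays they were 2211 in NP, 2251 in AF and 4462 in all without a block, and 2313, 2338 and 4651 with the animal as a random block. Median centring gave 2211, 1393 and 3604. Testing the 8027 probe sets with a mean of at least 8 gave 950, 930 and 1880, where fewer were tested. Requiring a log2 difference of 1 left 929 in NP and 1351 in AF. Without 1 animal, the counts ranged from 632 to 1253 in NP, from 1023 to 1567 in AF and from 1655 to 2820 in all; the lowest were without animal 1, and without animal 4 they were 757, 1164 and 1921. The cause of these shifts was not tested, beyond fewer arrays in the fits without an animal. Of 265 called named genes, 199 kept their call in every refit that tested them (11 for Scx, whose mean is under 8, and 12 for the others), 66 lost it in at least 1, of which 32 only in fits without an animal, and 0 reversed. Signals near the negative controls, with a 95th percentile of up to 10.78, limit what can be said of dim genes.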
